A study of Mus musculus with 13 samples.

Results

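Regions that changed their association with chromocenters between embryonic stem cells and astrocytes were defined from the calls of satellite 4C (sat4C). Pericentromeres of mouse chromosomes consist of major satellite repeats, which cluster into chromocenters and carry the marks of constitutive heterochromatin. Stretches of a chromosome arm that meet this compartment more often than their surroundings are called pericentromere-associated domains (PADs), and the stretches between them are non-PADs. The compartment is known as poor in transcription, and genes of many tissues have been seen to approach or leave it as cells differentiate.

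Each 4C fragment end was classed by its call in embryonic stem cells (ESCs) and in astrocytes (ACs), and consecutive ends of the same class were merged, with a border midway between ends of different classes. Of the 399232 fragment ends in the calls, the 374542 on the 19 autosomes were used, and they formed 4364 regions of 2414 Mb. A region is called gained where it was non-PAD in ESCs and PAD in ACs, and lost where it was PAD in ESCs and non-PAD in ACs. There were 1040 gained and 1125 lost regions beside 1141 that were PAD and 1058 that were non-PAD in both cell types. The calls chose these classes, so their sizes are given as a description and carry no test.

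The ESCs were of the IB10 line (strain 129/ola) and gave 3 replicates. Neural precursor cells (NPCs) derived from the same ESCs gave 2 replicates, and the ACs, which were made from these NPCs in culture, gave 2. Thymus came from 3 adult male C57BL/6 mice with 2 read sets each, so that thymus differs from the cultured cells in strain as well as tissue, and these cannot be told apart. All cells were unmodified and were crosslinked with formaldehyde, and the stem cells, NPCs and ACs go back to a single line. The calls give 1 consensus for each cell type and no read counts, so the depth is unknown, no difference could be set against the spread between cultures, and the labelled cell types could not be checked against markers.

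A fragment end lies at a recognition site of MfeI (CAATTG) or NlaIII (CATG), and the places of these sites limit how finely a border can be placed. Neighboring ends on the autosomes lay a median of 2892 bp apart. ESC and AC borders coincided to the base at 26 places, which means that the calls changed between the same neighboring ends in both cell types. Shown here are 3 of them with closely spaced ends, chosen so that both ends start at CAATTG or CATG. Pairs 30, 42 and 61 bp apart on Chromosomes 7, 10 and 14 did not meet this choice and were passed over. The pairs shown were thus selected for these motifs and do not show that every listed end starts at one. The sequences are printed on the plus strand of NCBIM37 (mm9), with the recognition sites in capitals, to let the resolution be seen.
Shared border on Chromosome 2: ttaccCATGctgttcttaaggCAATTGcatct
Shared border on Chromosome 19: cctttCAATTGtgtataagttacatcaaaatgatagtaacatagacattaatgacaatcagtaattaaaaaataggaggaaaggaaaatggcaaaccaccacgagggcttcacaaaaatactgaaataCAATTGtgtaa
Shared border on Chromosome 9: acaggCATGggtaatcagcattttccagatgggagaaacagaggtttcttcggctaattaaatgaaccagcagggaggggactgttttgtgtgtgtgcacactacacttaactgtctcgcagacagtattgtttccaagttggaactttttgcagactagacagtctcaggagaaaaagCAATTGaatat
The first (chr2:77320249-77320280) lies in an intron of *Zfp385b*, where both cell types entered a PAD with rising coordinate between 2 ends 16 bp apart. The second (chr19:39328942-39329080) lies in an intron of the cytochrome P450 gene *Cyp2c29*, and the third (chr9:34851448-34851637) lies outside annotated exons, 2.62 kb from the sialyltransferase gene *St3gal4*. At both of these, ESC and AC PADs ended together.

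ESC and AC calls were the same for 78.4% of the autosomal sequence. PAD in both covered 982 Mb (40.7%) and non-PAD in both 912 Mb (37.8%). Lost regions covered 293 Mb (12.1%) and gained regions 227 Mb (9.42%), so ACs had left 23.0% of the PAD sequence of ESCs, and 18.8% of the PAD sequence of ACs had been non-PAD in ESCs. Lost sequence exceeded gained sequence on 14 of 19 chromosomes, but the difference of 2.71 percentage points was smaller than its SD over chromosomes (5.61). Counted in fragment ends in place of bases, it was 1.02 points, with more lost than gained on 12 chromosomes. Chromosome 16 had the most gained sequence (19.4%) and Chromosome 14 the least (4.56%). The lost share ran from 8.27% on Chromosome 2 to 20.5% on Chromosome 18. Chromosomes stand here for the spread within the calls and are not biological replicates.

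**Figure D1:**
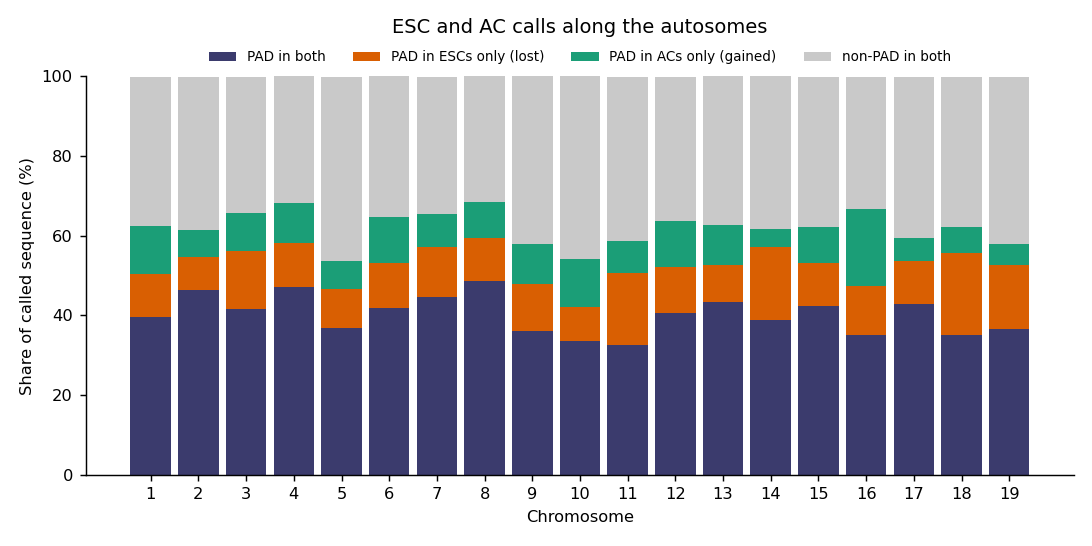
Share of the called sequence of each autosome (percent, y axis) in the 4 classes of ESC and AC calls. Gained sequence is widest on Chromosome 16 (19.4%) and narrowest on Chromosome 14 (4.56%).

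The ends of the chromosomes differed more in what they kept than in what they changed. In the 10 Mb nearest the centromere, which lies at the start of these acrocentric chromosomes, 55.5% was PAD in both cell types, against 24.9% in the last 10 Mb and 40.8% between. Gained sequence made up 8% of the first and 7.67% of the last 10 Mb, and lost sequence 12.9% and 8.86%. The lost sequence of the first 10 Mb includes a region of 4.90 Mb on Chromosome 14 that rested on only 43 fragment ends.

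Changed regions were mostly short and often lay at the edges of PADs that both cell types shared. The median size was 133 kb for lost and 138 kb for gained regions, with quartiles at 48.6 and 322 kb and at 49.8 and 291 kb. The largest lost region measured 4.90 Mb and the largest gained region 1.75 Mb, and 46 lost and 25 gained regions exceeded 1 Mb. Of the gained regions, 563 (103 Mb) lay between shared PAD and shared non-PAD sequence, so that a PAD had grown at its edge. A further 324 (89.7 Mb) had shared PAD sequence on both sides and filled a non-PAD of the ESCs, and 146 (32.8 Mb) stood as PADs within non-PAD sequence. Of the lost regions, 610 (141 Mb) lay at an edge, 204 (58.8 Mb) opened a gap within a shared PAD, and 304 (86.3 Mb) were PADs of the ESCs that had no PAD sequence beside them in ACs. Gains therefore lay inside PADs more often than losses (31.2% against 18.1% of regions), and losses lay inside non-PADs more often than gains (27.0% against 14.0%). The remaining 7 gained and 7 lost regions touched another changed region or a chromosome end.

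**Figure D2:**
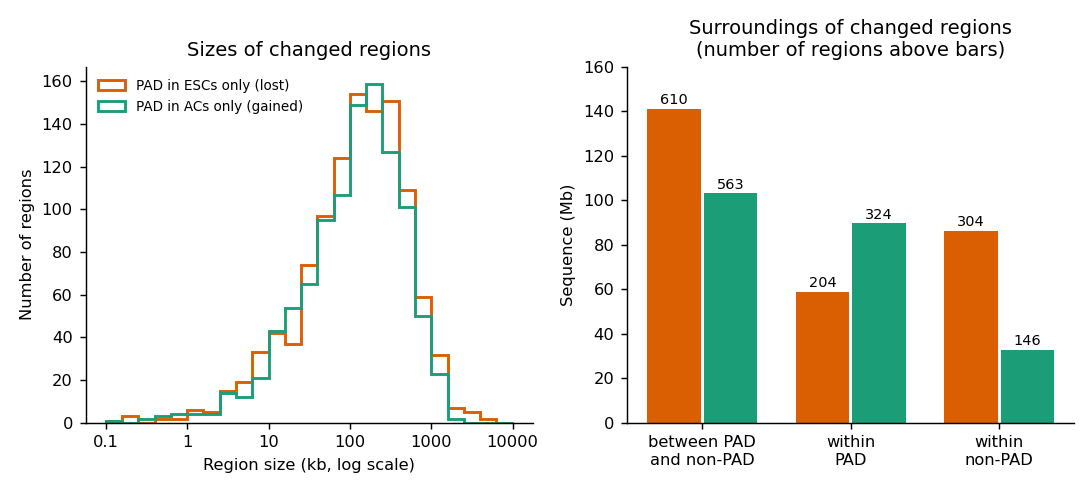
Left, sizes of the lost and gained regions (kb, log scale). Right, sequence (Mb) by what lay on both sides, with the number of regions above each bar. The medians are 133 kb (lost) and 138 kb (gained), and gains within PADs (89.7 Mb) exceed losses within PADs (58.8 Mb).

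Followed domain by domain, PADs without a counterpart were mostly small, and large PADs were in part cut or joined. ESCs had 1246 autosomal PADs and ACs 967. Of the ESC PADs, 309 (24.8%) shared no sequence with any AC PAD, and this share was 41.0% of the 632 PADs under 0.5 Mb, 10.9% of the 432 PADs from 0.5 to 2 Mb and 1.65% of the 182 PADs of 2 Mb and over. Of the smallest class, 240 were PAD in ACs throughout, and of the largest class 49 were so and 71 lay in at least 2 AC PADs. Of the AC PADs, 150 had no ESC PAD beneath them. Of the 176 AC PADs of 2 Mb and over, none was without ESC PAD sequence and 107 joined at least 2 ESC PADs. The one with most parts was an AC PAD of 5.40 Mb on Chromosome 13 (14135177 to 19539504), which held 8 ESC PADs that made up 75.4% of it. In the other direction, an ESC PAD of 8.62 Mb on Chromosome 6 (64197989 to 72814901) lay in 6 AC PADs, which kept 85.5% of it.

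The borders that both cell types had moved in both directions in near equal numbers. ESC PADs had 2466 borders and AC PADs 1908, and 1160 of them could be paired as nearest neighbors of the same orientation within 500 kb. Among the pairs, 217 lay within 20 kb of each other and 593 within 100 kb, with a median distance of 93.5 kb (quartiles 32.0 and 205 kb). The AC border lay further out at 551 pairs, where the PAD was larger, and further in at 583, so that 48.6% of the moved borders had moved outward. Outward shifts had a median of 99.3 kb and inward shifts of 102 kb. Inward shifts were the more frequent on 10 chromosomes and outward shifts on 6. The 1306 unpaired ESC borders exceeded the 748 unpaired AC borders, as ESCs had more and smaller PADs.

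**Figure D3:**
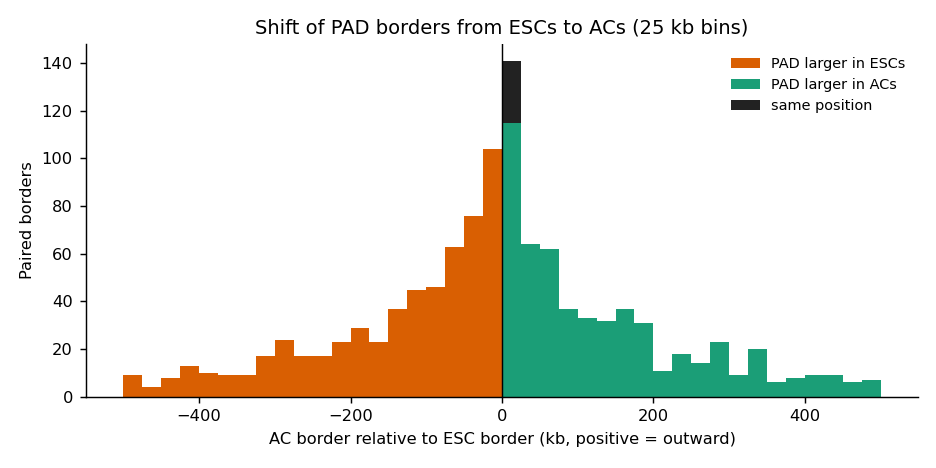
Number of paired borders (y axis) by the position of the AC border relative to its ESC border (kb, x axis, positive where the AC PAD reaches further out). The 583 inward and 551 outward shifts form a nearly symmetric distribution around 0, and 26 pairs lie at the same position.

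Lost regions were rich in genes and gained regions were poor in them. Protein-coding genes (GENCODE vM1) were assigned to the class found at the middle of the longest transcript, which gave 21397 genes on the called autosomal sequence. Of these, 3675 (17.2%) lay in lost regions and 1166 (5.45%) in gained regions. ACs thus had 7465 genes in PADs where ESCs had 9974, although PADs covered 50.1% and 52.8% of the sequence. Gene density was 12.5 per Mb in lost and 5.13 per Mb in gained regions, and lost regions were the denser on 19 of 19 chromosomes (mean difference 7.06 per Mb, SD 3.03). Sequence that was non-PAD in both held 11.2 genes per Mb and sequence that was PAD in both 6.42. Lost regions therefore had a density near that of shared non-PADs (higher on 11 and lower on 7 chromosomes), and gained regions lay below shared PADs on 15 of 19. No protein-coding gene had its midpoint in 675 of the gained regions (64.9%) and in 509 of the lost regions (45.2%).

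Base composition also separated lost from gained regions. GC content was 43.4% in lost and 40.2% in gained regions, higher in lost regions on 18 of 19 chromosomes (mean difference 3.12 points, SD 1.41), beside 44.1% in shared non-PADs and 39.8% in shared PADs. CG dinucleotides, the targets of DNA methylation, numbered 9.81 per kb in lost and 7.02 per kb in gained regions and were the denser in lost regions on 19 chromosomes. Fragment ends were sparser in lost (144 per Mb) than in gained regions (169 per Mb), and their part in these differences was not tested. The difference was also seen within one kind of position. Gained edges had 4.97 genes per Mb, beside 6.20 in the adjoining 100 kb of shared PAD and 5.78 in the adjoining 100 kb of shared non-PAD. Lost edges had 11.9 genes per Mb, beside 8.71 in the shared PAD and 10.2 in the shared non-PAD next to them. Gains inside non-PADs had 7.02 genes per Mb and losses inside non-PADs 12.9.

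**Figure D4:**
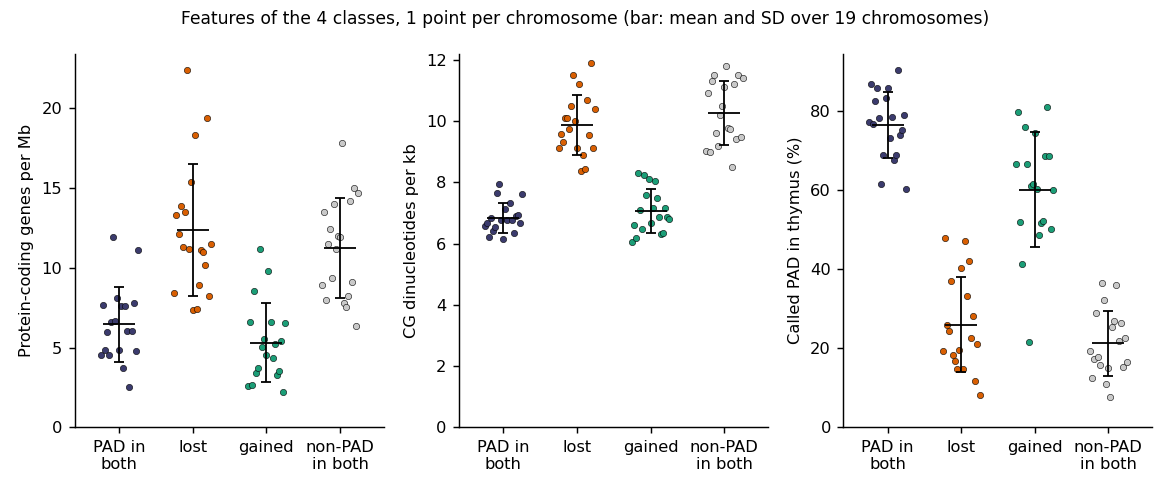
Gene density (per Mb), CG dinucleotides (per kb) and share called PAD in the thymus (percent) for each class, with 1 point per chromosome and the mean and SD over 19 chromosomes. Lost regions sit with shared non-PADs and gained regions with shared PADs in the first 2 panels, and the thymus share lies between 8.11% and 47.8% for lost and between 21.7% and 80.9% for gained regions.

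Promoters of genes in lost regions were of the CG-rich kind in most cases. In the 300 bases from 250 before to 50 after the annotated start, 61.4% of genes in lost regions had at least 10 CG dinucleotides, against 46.7% in gained regions, 61.3% in shared non-PADs, 41.5% in shared PADs and 54.7% of all genes. The share was higher for lost than for gained regions on 16 of 19 chromosomes. The pattern is not a rule for single genes. Medians were 15 CG dinucleotides for lost (quartiles 5 and 25) and 8 for gained genes (quartiles 2 and 22). The promoters of a lost gene, *Sox2*, of a gained *Hox* gene and of 2 gained genes of neuronal surface proteins are shown as examples. No CG-poor promoter of a lost gene is among them. The promoters shown are printed 5′ to 3′ on the strand of the gene, from NCBIM37, with each CG in capitals.
Sox2: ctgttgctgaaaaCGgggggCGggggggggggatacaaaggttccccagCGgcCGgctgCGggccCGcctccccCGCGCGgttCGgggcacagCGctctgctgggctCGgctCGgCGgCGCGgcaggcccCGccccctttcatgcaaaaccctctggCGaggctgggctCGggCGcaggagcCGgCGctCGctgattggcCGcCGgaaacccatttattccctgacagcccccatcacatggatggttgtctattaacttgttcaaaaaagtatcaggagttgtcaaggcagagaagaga
Hoxa13: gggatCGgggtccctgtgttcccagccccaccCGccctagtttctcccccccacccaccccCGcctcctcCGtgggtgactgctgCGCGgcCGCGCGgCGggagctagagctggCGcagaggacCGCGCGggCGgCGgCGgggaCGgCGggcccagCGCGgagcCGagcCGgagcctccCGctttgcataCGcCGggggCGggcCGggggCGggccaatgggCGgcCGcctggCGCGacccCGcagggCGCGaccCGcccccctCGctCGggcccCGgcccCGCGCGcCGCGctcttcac
Cntn6: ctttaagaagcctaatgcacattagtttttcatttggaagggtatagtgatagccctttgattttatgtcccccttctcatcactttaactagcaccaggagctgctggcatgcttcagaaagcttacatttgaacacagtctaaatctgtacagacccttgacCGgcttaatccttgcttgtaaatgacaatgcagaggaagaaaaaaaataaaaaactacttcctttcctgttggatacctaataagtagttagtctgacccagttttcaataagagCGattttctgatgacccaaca
Lrp1b: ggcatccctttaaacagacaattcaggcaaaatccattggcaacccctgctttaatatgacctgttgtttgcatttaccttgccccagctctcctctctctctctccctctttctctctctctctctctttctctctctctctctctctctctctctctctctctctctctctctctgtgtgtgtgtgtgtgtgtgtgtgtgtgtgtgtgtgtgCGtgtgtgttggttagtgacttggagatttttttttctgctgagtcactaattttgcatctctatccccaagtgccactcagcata
The promoter of *Sox2* (chr3:34548677-34548976, plus strand), a gene for a transcription factor of pluripotent and neural precursor cells, had 25 CG dinucleotides and lay in a lost region. The promoter of *Hoxa13* (chr6:52210825-52211124, minus strand) had 45 and lay in a gained region. Those of *Cntn6* (chr6:104442534-104442833, plus strand), a contactin of the axon surface, and *Lrp1b* (chr2:42509069-42509368, minus strand), a large receptor of the LDL receptor family, had 2 and 1 and were in gained regions.

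Of the 5 largest gained regions, 3 held no more than 1 protein-coding gene. The largest filled a gap between PADs on Chromosome 15 (17449798 to 19202801, 1.75 Mb, 311 fragment ends) and held only *Cdh10*, a cadherin gene. The second, on Chromosome 12 (3616552 to 5211434, 1.59 Mb, 180 ends), held 21 genes. Its longest were *Ncoa1*, a coactivator of nuclear receptors, *Dtnb*, a dystrobrevin gene, and *Atad2b*, and it also held the de novo DNA methyltransferase gene *Dnmt3a*. The third on Chromosome 1 (146670765 to 148204744, 1.53 Mb) held no protein-coding gene, and the fourth on Chromosome 2 (41380234 to 42864197, 1.48 Mb) held *Lrp1b*. The fifth, on Chromosome 4 (110263447 to 111675883, 1.41 Mb), held *Agbl4*, a tubulin deglutamylase gene, with *Spata6* and *Skint7* among its 6 genes. GC content was between 36.4% and 36.7% in those of *Cdh10* and *Lrp1b* and in the region without genes, and 44.4% in the region of *Dnmt3a*. The regions of *Cdh10* and *Lrp1b* were 100% PAD in the thymus, and that of *Dnmt3a* was 1.90% PAD.

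Of the 5 largest lost regions, 4 held over 60 genes each. The largest (Chromosome 14, 3291202 to 8188094, 4.90 Mb) lay at the start of the called sequence and rested on only 43 fragment ends, or 8.78 per Mb. It held 103 genes, most of them with provisional names such as *Gm10406*, *Gm3739* and *Gm3383*, in sequence of which 6.13% was not determined. The second was well covered (Chromosome 12, 65715338 to 70329877, 4.61 Mb, 791 ends) and was a PAD of the ESCs with shared non-PAD sequence on both sides. Its 18 genes included *Mdga2*, a membrane protein of synapses, *Fam179b*, the Fanconi anemia gene *Fancm*, and the ribosomal protein genes *Rpl10l* and *Rps29*. The third (Chromosome 11, 76487525 to 79574078, 3.09 Mb) held 66 genes, with *Ssh2*, the tumor suppressor *Nf1* and *Ksr1* as the longest. The fourth (Chromosome 4, 40335678 to 43364066, 3.03 Mb) held 80, with *Unc13b*, *4930578G10Rik* and *Atp8b5* as the longest, and the fifth (Chromosome 11, 3869455 to 6624955, 2.76 Mb) held 63, with *Znrf3*, *Ankrd36* and *Mtmr3*. *Lif*, named here outside the naming rule given below, was also in this last region. It encodes the cytokine that keeps mouse ESCs undifferentiated in culture. A lost region of 2.11 Mb on Chromosome 7 (27901586 to 30008022) held 80 genes, among them *Ryr1*, *Spnb4*, *Actn4*, *Fcgbp* and *Akt2*.

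Long genes were gained more often than lost when placed by their midpoint. Of 188 genes over 500 kb, 33 (17.6%) were gained and 13 (6.91%) lost by midpoint, beside 5.45% and 17.2% of all genes. Such genes often span several regions: 119 of them (63.3%) crossed a border between classes, where 5.58% of all genes did. Only 3 of the gained and 3 of the lost lay wholly in their class, so the difference was not seen for whole genes. The 3 wholly within gained regions were the phosphatase gene *Inpp4b* (782 kb), the kinase gene *Cdk14* (617 kb) and the nuclear envelope gene *Syne1* (530 kb). The 3 wholly within lost regions were the exchange factor gene *Rasgrf2* (882 kb), *Mdga2* (751 kb) and *Lpp* (599 kb).

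Genes of synapses and axon adhesion molecules are among the longest in the genome. They were often PAD in both cell types, as were 44.1% of genes over 500 kb and 29.4% of all genes. Their shares of gains and losses were near those of genes over 500 kb (17.6% gained, 6.91% lost) rather than all genes (5.45% and 17.2%). Of the 36 genes of synapses and axon adhesion, 20 were PAD in both, 8 were gained (22.2%), 2 were lost (5.56%) and 6 were non-PAD in both. All 36 exceeded 100 kb, with a median of 1084 kb, so most changed over part of their length only. Gained sequence was found in 23 of their bodies (7.98 Mb in all) and lost sequence in 10 (1.37 Mb), out of 40.4 Mb. Over all genes, 6.77% had gained and 19.3% had lost sequence in their bodies. Of the 188 genes over 500 kb, 100 had gained and 50 had lost sequence. *Cntn6* was the only member wholly within a gained region. Gained sequence, summed over all gained regions in each gene, made up 74.5% of *Robo2*, a receptor of axon guidance, 66.3% of *Pcdh15* and 61.6% of *Lrp1b*. It made up 55.9% of *Ntm*, 53.9% of *Lsamp*, 27.2% of the neurexin gene *Nrxn3* and 3.83% of *Dlg2*. *Dlg2* was called gained from its midpoint alone and had 10.4% of its body in lost sequence. The lost members were *Erbb4*, a neuregulin receptor, with 34.7% of its body in lost sequence, and *Odz4*, a teneurin gene, with 34.8% in lost and 11.6% in gained sequence. Gained sequence also took 47.9% of *Ptprd*, 36.3% of *Ctnna3*, 28.9% of *Cntn4* and 3.33% of *Robo1*, which were non-PAD in both by midpoint. Among the members that were PAD in both by midpoint, it took 44.4% of *Dcc*, which had 11.1% lost, 29.5% of *Opcml* and 25% of *Cntnap5a*. With genes counted only where they lay wholly in 1 class, 1 was gained and none lost.

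Of 30 genes of neuronal ion channels and receptors, 3 were gained (10%, beside 5.45% of all genes), 2 lost (6.67%, beside 17.2%), 14 PAD and 11 non-PAD in both. Gained sequence was found in 6 of their bodies (1.32 Mb) and lost sequence in 3 (0.584 Mb). Over all genes, these shares were 6.77% and 19.3%, and of 188 genes over 500 kb, 100 and 50 had such sequence. The median length of the 30 genes was 346 kb. Among the gained ones were the potassium channel partners *Dpp10* (69.8% of its body) and *Kcnip4* (20.3%). The lost ones were *Grin1*, the subunit common to NMDA receptors, which was wholly lost, and the calcium release channel gene *Ryr2* (82.5%). Lost sequence also took 22.6% of *Cacna2d1*, which was PAD in both by midpoint. None of the gained members and 1 of the lost members lay wholly in 1 class.

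Of 32 genes of pluripotency and the early embryo, 11 (34.4%) were lost and none gained, where 17.2% and 5.45% of all genes were. Another 4 were PAD and 17 non-PAD in both, so that ESCs had 15 of them in PADs and ACs 4. The transcription factor genes among the lost were *Sox2*, *Klf5*, *Nr5a2* and *Tcfcp2l1*. *Sox2* was the only protein-coding gene of a lost region of 764 kb on Chromosome 3 with 124 fragment ends, which separated shared non-PAD from shared PAD sequence, and lay 468 kb from the nearest AC border. *Nr5a2* and *Tcfcp2l1*, both on Chromosome 1, were also alone in their regions of 338 and 256 kb. The lost genes of secreted factors were *Fgf4*, *Gdf3* and the Nodal antagonist *Lefty2*. *Gdf3* and the maternal factor *Dppa3* shared a region of 287 kb and 43 ends on Chromosome 6 within shared PAD sequence. *Dppa2* and *Dppa4* shared one of 170 kb and only 16 ends on Chromosome 16, and *Fbxo15* was lost as well. All 11 lay wholly within lost regions, as did 3343 of the 3675 genes placed in them. *Dppa2*, *Dppa3*, *Dppa4* and *Gdf3* were PAD in the thymus and the other 7 were non-PAD there. Of all genes in lost regions, 84.4% were non-PAD in the thymus. The polycomb partner *Jarid2*, non-PAD in both by midpoint, had 25% of its body in lost sequence.

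Of 16 germ line genes, 4 were lost (25%, beside 17.2% of all genes) and none gained (beside 5.45%). The lost ones were *Stra8*, an inducer of meiosis, *Hormad1* of the meiotic chromosome axis, *Mael* of the piRNA pathway and *Rpl10l*, a ribosomal protein gene of the testis. *Asz1* had 3.46% of its body in lost sequence. Of 24 regulators of the germ layers, 1 was gained and none lost: *Gsc*, the goosecoid homeobox gene, in a region of 428 kb on Chromosome 12 that also held the *Serpina3* cluster. *Runx1* was non-PAD in both by midpoint with 47.4% of its body in lost sequence.

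Genes of astrocytes changed in both directions in numbers close to those of all genes. Of 36, 6 were lost (16.7%), 3 gained (8.33%), 12 PAD in both and 15 non-PAD in both. The lost ones were the glutamine synthetase gene *Glul*, the aldolase gene *Aldoc*, the folate enzyme gene *Aldh1l1*, the receptor gene *Fgfr3*, the connexin gene *Gjb6* and the water channel gene *Aqp4*. *Aldoc* lay 1435 kb from the nearest AC border, whereas *Aqp4* was crossed by one, with 52.3% of its body lost, in a region of 14 fragment ends. All 6 were non-PAD in the thymus, as were 84.4% of all genes in lost regions. The gained ones were the connexin gene *Gja1*, the phosphatase gene *Ppap2b* and *Sox9*, a transcription factor of the glial lineage. The gain of *Gja1* rested on 17 ends over 177 kb within a PAD, and that of *Sox9* on 41 ends over 178 kb at the edge of one. *Clu* and *Slc4a4* kept their calls by midpoint, with 6.90% of the first in lost and 2.98% of the second in gained sequence.

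Of 22 genes of neural precursors, 11 were PAD and 8 non-PAD in both, 2 were lost (9.09%, beside 17.2% of all genes) and 1 gained (4.55%, beside 5.45%). The Notch target *Hes1* and the homeobox gene *Meis1* (83.0% of its body) were lost, and the homeobox gene *Emx2* was gained. Placed by their start sites, 1 was lost and 2 were gained. Gained sequence also took 23.4% of *Gli3*, which was PAD in both by midpoint.

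Genes whose proteins build or read heterochromatin were lost in 7 of 26 cases (26.9%) and gained in 1 (3.85%), where 17.2% and 5.45% of all genes were. Another 14 were non-PAD and 4 PAD in both. The lost genes were *Dnmt1*, the maintenance DNA methyltransferase, and its partner *Uhrf1*, the H3K9 methyltransferase genes *Ehmt2* and *Setdb1*, the H4K20 methyltransferase gene *Suv420h2*, *Cbx5*, which encodes HP1 alpha, and *Mbd2*, a reader of methylated DNA. All lay wholly in lost regions, as did 3343 of the 3675 genes placed in lost regions. The regions measured 2.65 Mb for *Dnmt1*, 1.86 Mb for *Setdb1* and 0.449 to 0.841 Mb for the rest. All 7 lost genes were non-PAD in the thymus, as were 84.4% of all genes in lost regions. *Dnmt3a* was the gained one. *Daxx*, *Lmnb1* and *Suv39h2*, non-PAD in both by midpoint, had 7.21%, 37.3% and 19.5% of their bodies in lost sequence. These are positions of the genes, and the calls hold no expression.

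Most genes that all cells use kept their call, as did most of all genes (47.9% non-PAD and 29.4% PAD in both). Their lost share was close to that of all genes (17.2% lost, 5.45% gained). Of 22 housekeeping genes, 13 were non-PAD and 4 PAD in both, 5 were lost (22.7%, namely *Gapdh*, *Ppia*, *Tubb5*, *Canx* and *Gusb*) and none gained. Of 78 genes with ribosomal protein symbols, 18 were lost (23.1%) and none gained, and of 67 histone genes 14 were lost (20.9%) and none gained, shares of losses that are also near 17.2%. All 14 lay in 2 regions. Of these, 9 *Hist2* genes were in a lost region of 1.86 Mb and 228 ends on Chromosome 3, the same that held *Setdb1* and *Hormad1*, and 5 *Hist1* genes were in a region of 342 kb and 36 ends on Chromosome 13. A further 49 histone genes were PAD in both.

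The 4 *Hox* clusters, which set positional identity along the body axis, each behaved as a unit, and each fell in a different class. The *Hoxa* cluster was gained (12 entries of 11 symbols, since *Hoxa3* is annotated 2 times), *Hoxc* was lost (9 genes), *Hoxd* was PAD in both (9) and *Hoxb* was non-PAD in both (10). The gained region around *Hoxa* measured 1.14 Mb with 179 ends (Chromosome 6, 51836831 to 52973669) and stood within non-PAD sequence. It began 269 kb before the cluster of 106 kb and ended 763 kb after it, and held 18 genes from *Skap2* to *Jazf1*. The lost region around *Hoxc* measured 0.841 Mb with 101 ends (Chromosome 15, 102443286 to 103283935) and also stood within non-PAD sequence. It held 22 genes from *Atp5g2* to *BC048502*, and *Cbx5* was among them. All *Hoxa*, *Hoxc* and *Hoxd* entries were PAD in NPCs. Of all autosomal sequence, 69.3% was PAD in NPCs, which is a share of sequence and not of genes. None of the 40 entries was PAD in the thymus, where 25.7% of all genes were.

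**Figure D5:**
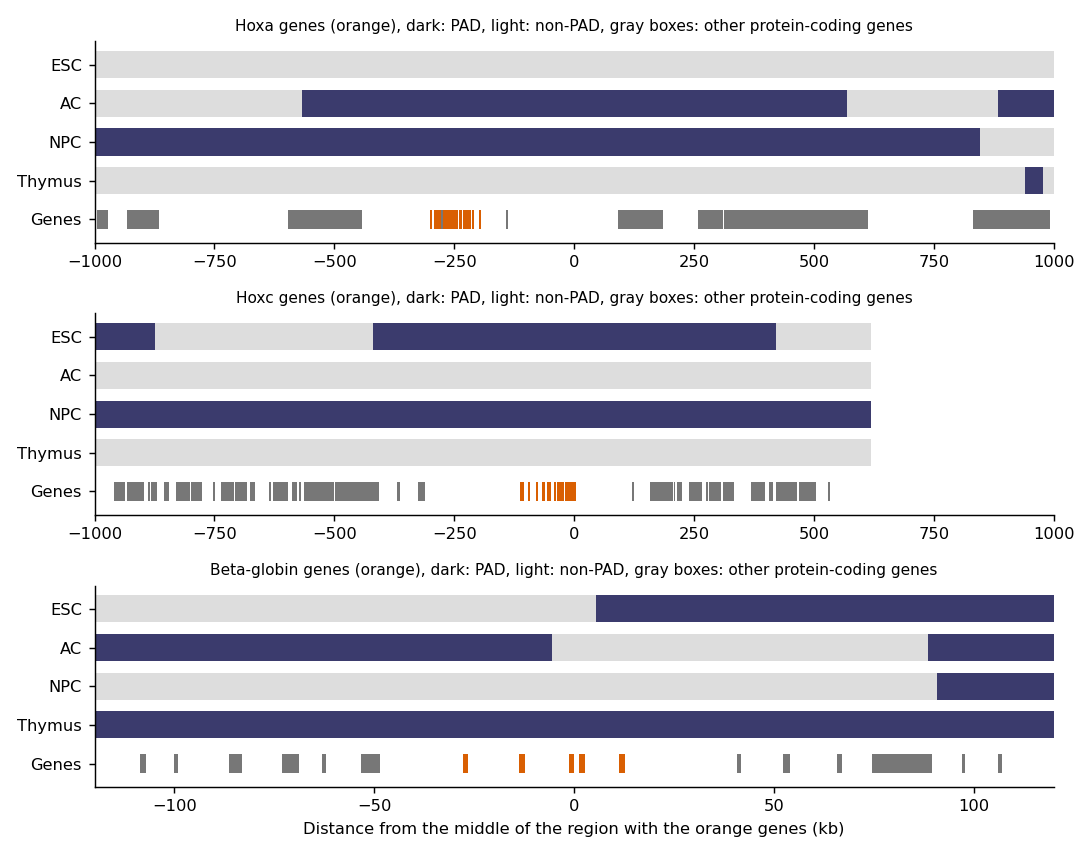
Calls of ESCs, ACs, NPCs and thymus (dark, PAD, light, non-PAD) and protein-coding genes by distance (kb) from the middle of the region that holds the *Hoxa*, *Hoxc* or embryonic beta-globin genes. The *Hoxa* genes are PAD in ACs and not in ESCs, the *Hoxc* genes are PAD in ESCs and not in ACs, and the 5 beta-globin genes span an ESC and an AC border. The called sequence ends at 618 kb in the middle panel.

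The beta-globin genes, named here after their calls were seen, were split by borders of opposite direction. They lie within a long array of olfactory receptor genes on Chromosome 7. The adult genes *Hbb-b1* (110975048 to 110976610) and *Hbb-b2* (110961038 to 110962510) were at the end of a gained region of 450 kb and 66 fragment ends, which held 25 of the olfactory receptor genes. *Hbb-bh1* and *Hbb-bh2* were in a non-PAD of both cell types of only 11.2 kb and 4 ends. The embryonic gene *Hbb-y* began a lost region of 82.9 kb and 8 ends, with *Olfr66*, *Olfr64*, *Olfr65* and *Olfr631*. The PAD border thus lay on one side of *Hbb-bh1* and *Hbb-bh2* in ESCs and on the other in ACs, and the call of this segment rests on few ends. All 5 genes were PAD in the thymus.

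Most olfactory receptor genes were PAD in both cell types, whereas 29.4% of all genes were. Of 1081 olfactory receptor genes, 826 were PAD in both, 92 were gained (8.51%), 56 lost (5.18%) and 107 non-PAD in both, where 5.45% of all genes were gained and 17.2% lost. Their largest gained group was that beside the beta-globin genes, followed by 17 genes in a gap within PADs on Chromosome 2. Their largest lost group was 17 genes in an edge of 474 kb on Chromosome 14. Of 319 vomeronasal receptor genes, 15 were gained (4.70%) and 12 lost (3.76%), and all 24 genes of the protocadherin clusters were PAD in both.

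Other clustered families changed in blocks, and their counts are given beside 5.45% gained and 17.2% lost over all genes. Of 46 keratin genes, 10 were gained (21.7%) and 7 lost (15.2%) and none was PAD in both. The gained ones are the type I genes of Chromosome 11, in a region of 0.646 Mb (99456643 to 100102827) with 61 genes, the most of any gained region. It also held keratin-associated protein genes such as *Krtap9-3*, *Krtap2-4*, *Krtap4-1* and *Krtap4-2*. The lost ones, among them *Krt8* and *Krt18*, the keratins of simple epithelia, lay in a region of 0.300 Mb on Chromosome 15. Of 59 serpin genes, 14 were gained (23.7%), 11 of them in the cluster of *Serpina3* and *Serpina5* on Chromosome 12, and 2 were lost (3.39%). Of 53 defensin genes, 14 were gained (26.4%) and none lost, with 11 alpha-defensin genes in a region of 0.678 Mb on Chromosome 8 that rested on only 19 ends. Cytochrome P450 genes were near the shares of all genes. Of 98, 8 were gained (8.16%), 6 of them in the *Cyp4a* and *Cyp4b1* cluster of Chromosome 4, and 12 lost (12.2%), 5 of them in the *Cyp2c* cluster of Chromosome 19.

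Among all genes 17.2% were lost and 5.45% gained. Chemokine genes were lost more often than this, and the other families given here had shares of losses near it. Of 36 chemokine gene entries, 14 were lost (38.9%) and none gained, with 6 from *Ccl19* to *Ccl27b* in the 3.03 Mb region of Chromosome 4 and 5 from *Ccl3* to *Ccl9* in a region of 170 kb on Chromosome 11. Of 337 zinc finger gene entries, 63 were lost (18.7%, near the share of all genes) and 6 gained (1.78%), and the largest lost groups were 6 genes in each of 2 regions on Chromosome 7. Of 60 C-type lectin and Klr receptor genes, 8 were lost (13.3%) and 1 gained. Of 343 solute carrier entries, 49 were lost (14.3%) and 12 gained (3.5%), and of 41 collagen genes 8 were lost (19.5%) and 1 gained, which is close to all genes. Clustered genes share a region, so these counts rest on fewer places than genes.

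Calls of cells that did not define the classes were then set beside them. The thymus was PAD in 26.0% of the lost and 60.9% of the gained sequence, with 48.1% over all autosomes, and the gained share was the higher on 19 of 19 chromosomes (mean difference 34.2 points, SD 17.0). Over the changed sequence as a whole, the thymus had the call of ACs in 68.3%, and in more than 50% on every autosome (50.7% on Chromosome 12 to 84.0% on Chromosome 19). Of the 3675 genes in lost regions, 84.4% were non-PAD in the thymus, where 74.3% of all genes were. Of the 1166 in gained regions, 37.3% were PAD there, where 25.7% of all were.

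NPCs, the stage between ESCs and ACs in this culture, were PAD in like shares of lost, gained and all sequence. They were PAD in 73.9% of the lost and 69.0% of the gained sequence, where they were PAD in 69.3% of all autosomal sequence. Over the changed sequence, the NPC call was that of ESCs in 55.1% and that of ACs in 44.9%, and most of each changed class was PAD in NPCs. Of the lost sequence, 60.6% was PAD in NPCs and not in the thymus. The same held for 42.8% of shared non-PAD, 33.3% of gained and 21.2% of shared PAD sequence. Chromosome 12 stood apart: NPCs had the AC call in 86.4% of its changed sequence, against 57.2% on Chromosome 13 and 27.3% to 48.4% on the other autosomes. Only 11.7% of the lost sequence of Chromosome 12 was PAD in NPCs, and the 4.61 Mb lost region with *Mdga2* was non-PAD throughout.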

How the data were processed

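Chromatin of ESCs (3 replicates), ACs (2), NPCs (2) and thymus (3 mice) was studied by sat4C, in which crosslinked DNA is cut with ApoI and MfeI and ligated, cut with NlaIII and ligated again, and amplified from primers in the major satellite. The deposited file holds, in no numerical unit, the word PAD or nPAD for each fragment end, mm9. The authors made these calls from reads mapped to fragment ends (aligner not given in the sources used here) with a 2-state hidden semi-Markov model per replicate and a majority vote over replicates, with pooled reads for ties. Such a model smooths over neighboring ends, and short regions rest on few ends. The columns of per-sample values that no label matched numbered 0.

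Borders were set midway between ends of different classes. Genes were those of GENCODE vM1, and sequences, GC content and CG dinucleotides came from NCBIM37, read with Python 3.11.15, numpy 2.4.6, pandas 2.3.3 and pysam 0.24.0. ESC and AC borders were paired as mutual nearest neighbors within 500 kb, and adjoining sequence was taken over 100 kb. Named were the longest genes of the 5 largest regions, up to 5 genes of the 3 regions with most genes, the 3 longest genes wholly inside gained or lost regions, and list members that changed or were crossed by a border. Members and lists were chosen with earlier results of these data known. No test was run, since 1 call per cell type leaves no replicate error. The steps were tested on simulated calls, in which all 549 planted regions were recovered. Alternatives changed the border rule, short runs, gaps, counting unit, gene placement, gene types, pairing limit and the use of Chromosome X. A few list members that the naming rule would take are not reported here.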

Additional observations from a re-analysis of the deposited data

Results flagged for a closer look

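Chromosome X, which was outside the comparison of autosomes, had more gained sequence than any autosome. Gained regions made up 22.4% of it (96 regions, 36.7 Mb), beside 4.56% to 19.4% on the autosomes, and lost regions 13.9% (94 regions, 22.6 Mb), within the autosomal range of 8.27% to 20.5%. PAD in both covered 34.0% and non-PAD in both 29.6%. Whether the difference exceeds that between cultures was not tested.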

How the results depend on the processing

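The 53 values were recomputed under 11 alternatives, which gave 135 further values. Of these, 122 moved by less than the spread over chromosomes (counts by less than 1.5 times), 13 moved by more and none changed sign. The median distance of paired borders fell from 93.5 to 64.9 kb when pairs had to lie within 250 kb, which leaves out the longer distances by construction. With all annotated gene types, lost regions held 5851 genes (20 per Mb) and gained regions 2184 (9.60 per Mb). Genes placed by their start site gave 1 lost and 2 gained neural precursor genes and 1 lost germ layer regulator. With genes wholly in 1 class, 1 neural precursor gene, 0 synaptic and 1 ion channel gene were lost, and 1 synaptic and 0 ion channel genes were gained.

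No paired analysis was possible because the calls hold 1 consensus per cell type, which also leaves no replicate to leave out. The depth behind each call is unknown. Regions of few ends, such as those of *Hbb-bh1*, *Dppa2* and the alpha-defensins, are the least secure in place, and 199 gaps of over 100 kb between ends hold no call of their own. The share of repeats in each class was not analysed.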
